A study of Mus musculus with 30 samples.

Results

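The proteasome is described here through the 42 genes of the raw count table whose symbols run from Psma, Psmb, Psmc, Psmd, Psme or Psmf to a number and which had 10 or more counts in at least 7 of the 30 libraries. The pattern matched 44 symbols among the 56980 genes of the table, and 42 passed the floor on counts. Psma8, a core subunit known from testis, had 33 counts over all 30 libraries and none with 10, and Psmb11, the subunit of the thymus proteasome, had 0 of the 480 M counts in all, which allows up to 0.00625 CPM (counts per M counts of a library). All 42 genes were among the 16932 genes tested. By role they are 7 alpha and 7 constitutive beta subunits of the core, 3 immunoproteasome subunits, 6 ATPases and 3 other subunits of the base, 8 lid subunits, 3 chaperones of base assembly, 4 activators and 1 inhibitor.

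The study sequenced total RNA from the soleus, a slow postural muscle of the calf, of C57BL/6J mice aged 3 to 4 months to ask how loss of AMP-activated protein kinase (AMPK) bears on muscle disuse. Ambulatory controls (AMB Ctrl, 8 mice, 5 of them female) and hindlimb-unloaded controls (HU Ctrl, 7 mice, 3 female) carried floxed alleles of both catalytic AMPK genes, alpha1 and alpha2, and no Cre. Ambulatory knockouts (AMB mKO, 7 mice, 2 female) and hindlimb-unloaded knockouts (HU mKO, 8 mice, 5 female) had both genes deleted in skeletal muscle, and unloading or free walking lasted 4 weeks. Since the controls lacked Cre, loss of AMPK and presence of Cre cannot be told apart, and the promoter driving Cre is not given in the sources used here. Floxed alleles were shared by all 4 groups.

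The proteasome degrades proteins tagged with ubiquitin, and in skeletal muscle it takes apart a large share of the contractile proteins lost during disuse. Its barrel-shaped core is built from rings of alpha subunits, which gate entry, and rings of beta subunits, of which PSMB5, PSMB6 and PSMB7 cut the chain. A base of ATPases unfolds the substrate, a lid strips off ubiquitin, and other caps (PA28 and PA200) can open the core instead. Interferon gamma induces PSMB8, PSMB9 and PSMB10, which replace the 3 cutting subunits in the immunoproteasome. The transcription factor NRF1 (gene Nfe2l1), paired with small MAF proteins, is known to raise subunit genes together through antioxidant response elements in their promoters.

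The 5 sequences printed here are shown because they place that element in the promoters of 5 members. Of the 42 members, 36 had an entry in the RefSeq promoter table (build GRCm38.p6), and the 250 bases before the start site were searched on both strands. The members without an entry were Psmb1, Psmb2, Psmb7, Psmc3, Psmd3 and Psmd7. TGACNNNGC, the core of the antioxidant response element, was found in 5 of 36 members (13.9%), namely Psmb5, Psmb6, Psmc6, Psmd12 and Psmd9, and in 11.5% of the 27025 genes with an entry. Capitals mark the match, which for Psmc6 and Psmd12 lies on the opposite strand, and each run is given 5′ to 3′ on the strand of its gene.

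Psmb5 promoter, chr14:54618014-54618062, minus strand: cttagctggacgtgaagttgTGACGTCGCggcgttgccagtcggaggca
Psmb6 promoter, chr11:70525328-70525356, plus strand: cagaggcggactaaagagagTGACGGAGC
Psmc6 promoter, chr14:45329577-45329625, plus strand: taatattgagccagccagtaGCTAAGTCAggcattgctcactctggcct
Psmd12 promoter, chr11:107479278-107479309, plus strand: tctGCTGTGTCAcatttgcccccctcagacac
Psmd9 promoter, chr5:123228139-123228187, plus strand: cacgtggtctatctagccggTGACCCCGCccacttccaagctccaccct

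A GC box (GGGCGG) was in 21 of 36 members (58.3%) against 35.4% of all genes, and a CCAAT box in 13 of 36 (36.1%) against 37.5%. In all, 11 motifs were counted, some of which overlap. They were chosen after values of these genes had been seen, and a match is a description of letters, not a site of binding.

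The libraries held between 12.1 M and 20.9 M counts each, and levels are CPM normalised by TMM. AMPK alpha2 (Prkaa2) checked the labels: it averaged 213 ± 28.3 CPM (SD, n = 8) in AMB Ctrl against 60.3 ± 26.3 (n = 7) in AMB mKO, and 254 ± 73.2 (n = 7) in HU Ctrl against 80.1 ± 18.5 (n = 8) in HU mKO, a log2 difference of -1.89 ± 0.26 and -1.64 ± 0.24 (adjusted p = 0.00037 and 0.0019, edgeR), while Prkaa1 passed the test in neither comparison. 1 library stood apart. AMB mKO replicate 2 had a summed level of the 4 skeletal muscle markers of 1712 CPM, where the other 29 libraries had at least 11815, and of the 6 slow fibre markers of 404 CPM against 9634 or more. Its 7 adipocyte markers summed to 9346 CPM, and the libraries next highest in them were HU mKO replicates 3 (2259 CPM) and 2 (2135 CPM) and AMB mKO replicate 3 (1719 CPM). Results that rest on replicate 2 are therefore given with and without it, except where stated. The sample titles end in a, b or c, and the letter is not explained; every group holds all 3, so values within letters are given too.

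**Figure D1:**
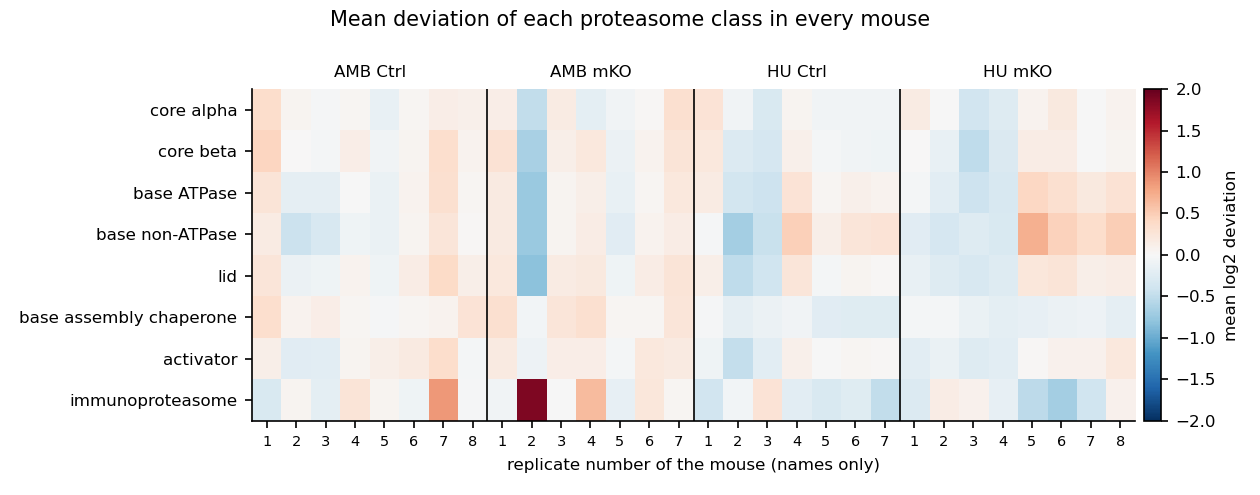
Mean log2 deviation of each class of proteasome genes in each of the 30 mice (columns, by group), from the average of that gene over all mice on the scale log2(CPM + 1); red is above and blue below the average. AMB mKO replicate 2 is lowest for the core, base and lid classes and highest, at 1.87, for the immunoproteasome.

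In soleus the constitutive proteasome was abundant and the immunoproteasome scarce. Per kilobase of exon, over all 30 libraries, the highest median levels were those of Psmb5 (60.7 CPM per kb), the base subunit gene Psmd2 (57.5), Psma6 (53.8), the ATPase gene Psmc3 (52.0) and Psmb4 (45.8). The lowest were Psmb9 (0.669 CPM per kb), Psmb8 (1.32), Psmd9 (2.15), Psmf1 (2.84), Psmd5 (3.37), Psmd10 (3.40) and Psmb10 (4.39). The 7 genes at the bottom of the order were thus the 3 immunoproteasome subunits, the 3 assembly chaperones and the inhibitor. Among the activators, Psme4 stood at 33.5, Psme3 at 18.2, Psme1 at 9.70 and Psme2 at 9.11 CPM per kb. Subunits that sit in the core in equal numbers differed in transcript level per kb, from 12.6 for Psma2 to 60.7 for Psmb5. The exon lengths come from GENCODE M21 and count every annotated exon of a gene, so this order depends on the annotation. Psmd9 has 7248 such bases and Psmb5 has 899.

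After 4 weeks of unloading few proteasome genes changed, and those that passed the test fell. In control mice 1 of 42 members, the assembly chaperone Psmd10, fell and 0 rose, where 5.74% of all genes tested fell and 5.37% rose (edgeR quasi-likelihood test, Benjamini-Hochberg adjusted p below 0.05). In knockout mice 3 members fell, the immunoproteasome subunit Psmb10, the activator Psme2 and the chaperone Psmd9, and 0 rose, against 4.75% and 5.3% of all genes. At an unadjusted p under 0.05 stood 12 of 42 members in controls and 10 of 42 in knockouts, beside 4467 and 4615 of all 16932 genes, which are similar shares. The values of 33 of 42 members were lower in unloaded than in ambulatory controls, with a median log2 change of -0.16 beside 0.03 over all genes tested; in knockouts 23 of 42 were lower, with a median of -0.03 beside -0.04. Without AMB mKO replicate 2, 29 of 42 were lower in knockouts, with a median of -0.12 beside 0.03 over all genes. In bulk tissue, fewer cells of a type and less RNA per cell cannot be told apart. The labels do not say that any mice shared a litter or a day, and each library is taken as 1 mouse.

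**Figure D2:**
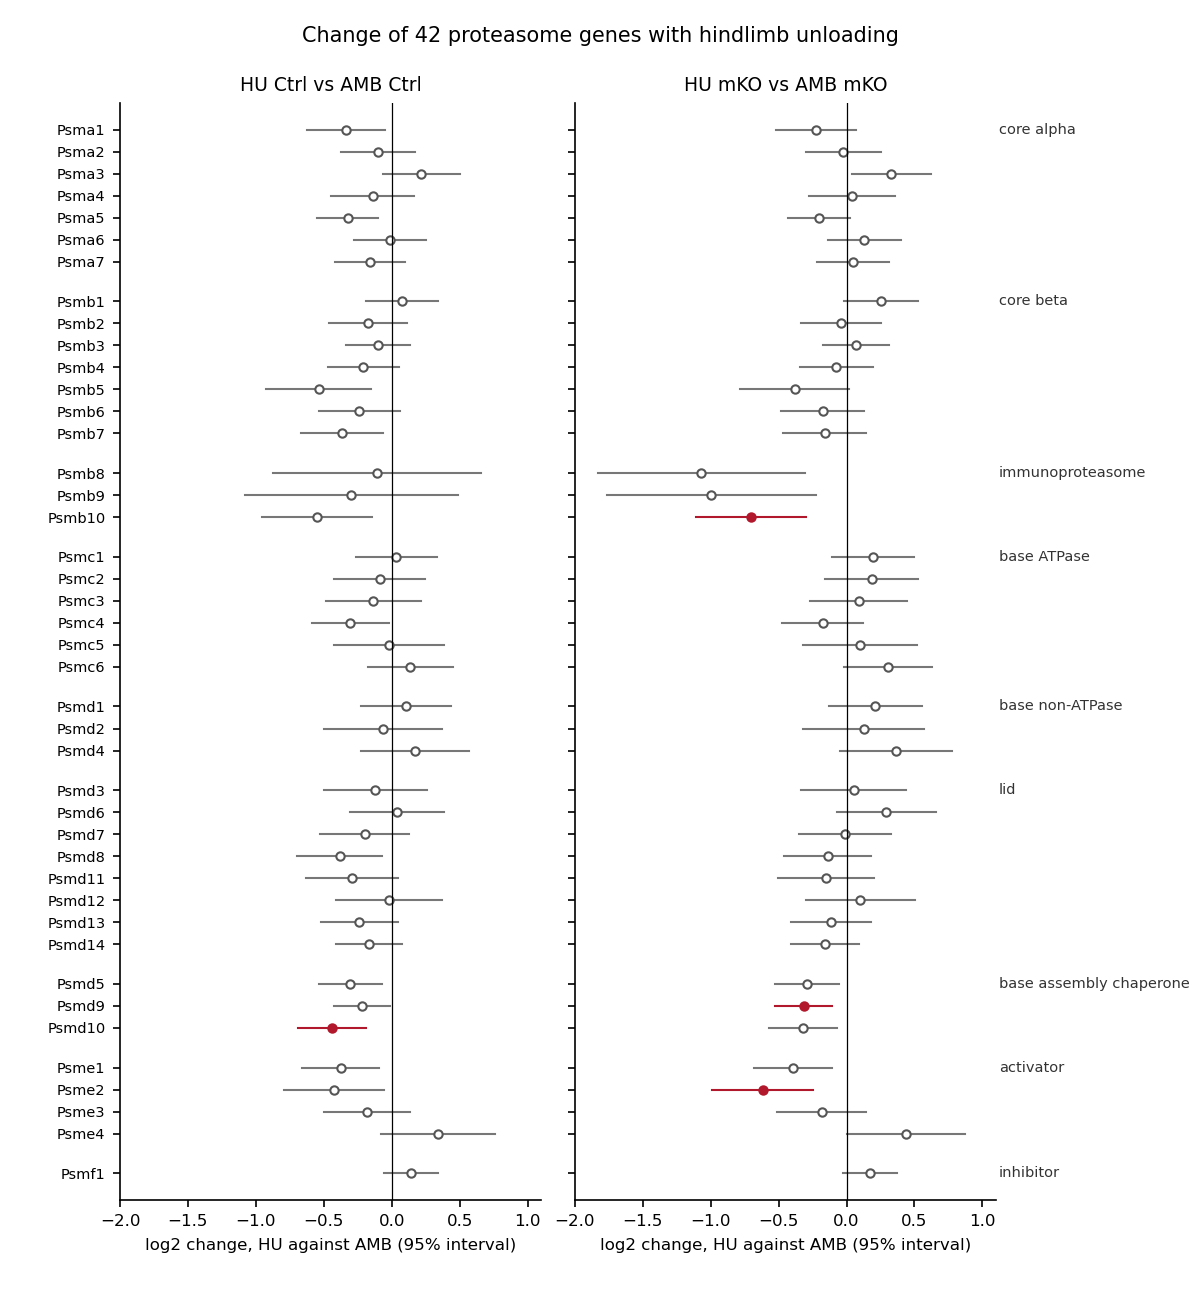
Log2 change of each of the 42 members in unloaded against ambulatory mice, with its 95% interval, in controls (left) and knockouts (right), grouped by role; filled red points passed the adjusted p of 0.05. In controls only Psmd10 is filled and in knockouts Psmb10, Psmd9 and Psme2, all to the left of 0.

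The count of members called depended on AMB mKO replicate 2, which enters the shared estimate of spread. Without it, 7 members fell in unloaded controls (Psma5, Psmb5, Psmb7, Psmb10, Psmd10, Psme1 and Psme2), where 7.86% of all genes fell, and 3 fell in unloaded knockouts (Psmb5, Psmd5 and Psmd9), where 6.82% did. The calls of Psmb10 and Psme2 in knockouts thus ended without it. DESeq2 and limma voom called 0 members higher in knockouts, and limma voom called 1 member, Psme4, higher in controls. With HU mKO replicates 2 and 3 left out as well, 9 members fell in controls (background 9.37%) and 2, Psmd5 and Psmd9, in knockouts (background 7.07%). With the title letter as a covariate, 7 fell in controls (Psma1, Psma5, Psmb5, Psmb7, Psmd5, Psmd8 and Psmd10; background 7.85%), and in knockouts Psmb10, Psmd9 and Psme2 fell (background 7.09%) and Psme4 rose (background 8.22%). Within each of the 3 letters taken alone, 15 of 42 members were lower and 2 higher in unloaded controls, and 18 were lower and 10 higher in unloaded knockouts. The matching shares of all genes are not given, so these counts cannot show a trait of proteasome genes.

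Chaperones that assemble the base had lower values in unloaded mice of both genotypes for all 3 genes, with a median log2 change of -0.30 in controls and -0.31 in knockouts. PSMD10 (gankyrin), PSMD9 and PSMD5 each hold ATPases of the base while the ring forms and leave before the particle is complete. Psmd10 had a lowest, median and highest level of 4.48, 5.67 and 7.62 CPM in AMB Ctrl and of 3.69, 4.27 and 4.88 CPM in HU Ctrl. Of the 7 unloaded controls, 5 lay below the lowest ambulatory control and all 7 below the ambulatory median. Psmd10 fell by 0.44 ± 0.12 on the log2 scale (SE; 26.3% lower; adjusted p = 0.018, edgeR), and within letters a, b and c its changes in log2(CPM + 1) were -0.41, -0.65 and -0.15. The call held in 9 of 10 other ways of processing and ended without a filter on low counts (adjusted p = 0.11). In knockouts it ran 4.88, 5.66 and 7.03 CPM in AMB mKO and 4.06, 4.63 and 5.37 in HU mKO, a log2 change of -0.32 ± 0.12 that missed the threshold (adjusted p = 0.092, edgeR). Here 4 of 8 unloaded knockouts were below every ambulatory one and all 8 below the ambulatory median.

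Psmd9 ran 15.0, 18.4 and 24.9 CPM (lowest, median, highest) in AMB mKO and 12, 15.0 and 15.9 CPM in HU mKO. It fell in knockouts by 0.31 ± 0.10 on the log2 scale (adjusted p = 0.048, edgeR), and by 0.34 ± 0.11 without AMB mKO replicate 2 (adjusted p = 0.030). The call ended without a filter on low counts (adjusted p = 0.18) and with only the 2 groups in the model (adjusted p = 0.17). All 8 unloaded knockouts were below the ambulatory median, while the ranges of the groups overlapped. In controls Psmd9 ran 15.2, 16.8 and 21 CPM in AMB and 14.1, 14.6 and 16.4 in HU, a log2 change of -0.22 ± 0.10 (adjusted p = 0.16, edgeR). A long noncoding RNA gene on the opposite strand, Gm26745, shares 1849 of the 7248 exon bases of Psmd9 in GENCODE M21; whether counting used strand is not stated, so reads of the pair are uncertain.

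Psmd5 ran 20.8, 26.7 and 34.4 CPM in AMB Ctrl and 20.4, 21.8 and 24.9 CPM in HU Ctrl. It ran 21.6, 28.6 and 31.7 CPM in AMB mKO and 20.4, 22 and 27.2 CPM in HU mKO. The log2 changes were -0.30 ± 0.11 (adjusted p = 0.077) and -0.29 ± 0.11 (adjusted p = 0.099) by edgeR, neither past the threshold; without AMB mKO replicate 2 Psmd5 fell in knockouts by 0.35 ± 0.12 (adjusted p = 0.039). The lowest ambulatory knockout was replicate 2, and without it 7 of 8 unloaded knockouts lay below every ambulatory one. AMB mKO replicate 2 was neither the lowest nor the highest of the 30 libraries for any of the 3 chaperones.

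**Figure D3:**
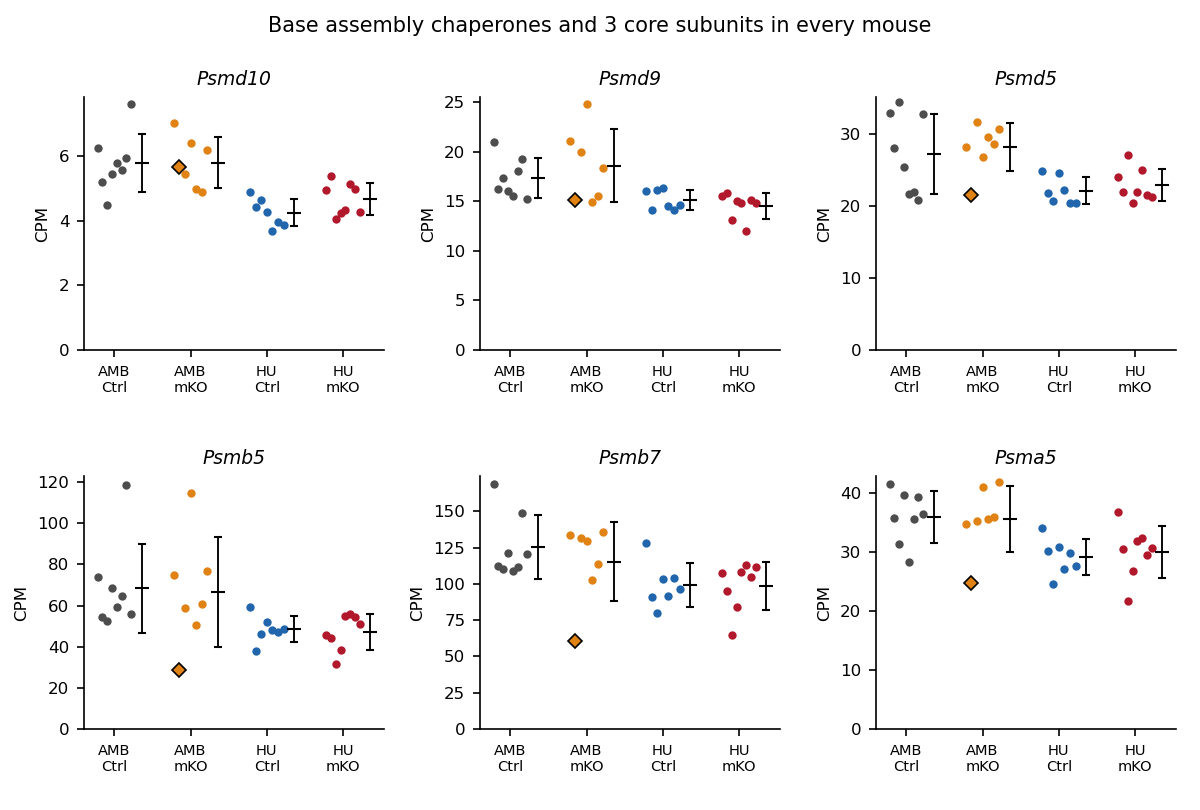
CPM of 3 assembly chaperones and 3 core subunits in every mouse, by group; the bar beside each group is the mean ± SD and the black-edged diamond is AMB mKO replicate 2. Of the unloaded mice, 6 of 7 controls lie below every ambulatory control for Psmb5 and Psmb7, and replicate 2 is far below its group for Psmb5, Psmb7 and Psma5.

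Core subunits mostly had lower values in unloaded controls, and the main model called none in either genotype. Other methods with all libraries and no term for the letter did call some lower. In controls DESeq2 called Psma5 and Psmb5, and limma voom called Psma1, Psma5 and Psmb5. Psma5 was also called there with median-of-ratios size factors or a mean of at least 1 CPM. In knockouts limma voom called Psma1 and Psma5. Of the 14 core genes, values in the main model were lower for 12 in controls (median log2 change -0.17) and for 8 in knockouts (median -0.03). The knockout count and median include AMB mKO replicate 2, the lowest of 30 libraries for 9 of these 14 genes. Without it the knockout changes ran from -0.53 for Psmb5 to 0.26 for Psma3. The contrast with controls is therefore not read as a difference between genotypes. Psmb5, which encodes the chymotrypsin-like subunit, ran 52.5, 61.8 and 118 CPM in AMB Ctrl and 38.1, 48.2 and 59.5 CPM in HU Ctrl. The highest ambulatory value was that of replicate 7, and 6 of 7 unloaded controls lay below every ambulatory one. Its log2 change was -0.54 ± 0.19 (95% interval -0.93 to -0.15; adjusted p = 0.063, edgeR), and without AMB mKO replicate 2, which belongs to neither group compared, it fell by 0.52 ± 0.16 (adjusted p = 0.028). In knockouts Psmb5 ran 28.8, 60.8 and 115 CPM in AMB mKO and 31.7, 48.3 and 56.0 in HU mKO. The lowest of these ambulatory values was replicate 2, and the log2 change was -0.38 ± 0.20 with it (adjusted p = 0.21) and -0.53 ± 0.17 without it (adjusted p = 0.043, edgeR).

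Psmb7, encoding the trypsin-like subunit, ran 109, 116 and 169 CPM in AMB Ctrl and 80.0, 96.5 and 128 CPM in HU Ctrl, with 6 of 7 unloaded controls below every ambulatory one. Its log2 change was -0.37 ± 0.15 (adjusted p = 0.10, edgeR). In knockouts it ran 60.5, 129 and 136 CPM in AMB mKO and 64.9, 106 and 113 in HU mKO, a log2 change of -0.16 ± 0.15 (adjusted p = 0.51). The 60.5 CPM were those of replicate 2, and without it the change was -0.28 ± 0.13 in knockouts (adjusted p = 0.14), while in controls Psmb7 fell by 0.34 ± 0.12 (adjusted p = 0.045). Psmb7 shares 405 exon bases with Nek6 on the opposite strand. Psmb6, encoding the caspase-like subunit, ran 68.9, 76.3 and 114 CPM in AMB Ctrl and 58.9, 71.6 and 82.3 in HU Ctrl, and 49.0, 79.6 and 127 in AMB mKO and 52.0, 72.8 and 81.3 in HU mKO. Its log2 changes were -0.24 ± 0.15 in controls and -0.18 ± 0.15 in knockouts (-0.27 without replicate 2), and its groups overlapped. Psmb5, Psmb6 and Psmb7 thus had changes of the same sign and different sizes. Of these, Psmb5 and Psmb6 hold the antioxidant response element core printed above, while Psmb7 had no promoter entry and was not searched. That core was in 13.9% of members and 11.5% of all genes with an entry, and its part in these changes was not tested.

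Psma5, of the alpha ring, ran 28.2, 36.1 and 41.5 CPM in AMB Ctrl and 24.6, 29.9 and 34.1 CPM in HU Ctrl, a log2 change of -0.32 ± 0.11 (adjusted p = 0.051, edgeR). All 7 unloaded controls were below the ambulatory median, and without AMB mKO replicate 2 Psma5 fell by 0.30 ± 0.10 (adjusted p = 0.030). Psma1 had a log2 change of -0.34 ± 0.14 in controls (adjusted p = 0.12) and -0.22 ± 0.14 in knockouts (adjusted p = 0.32). Psma3 had values on the other side, with log2 changes of 0.22 ± 0.14 and 0.33 ± 0.14 (adjusted p = 0.33 and 0.13, edgeR). The other core subunits, Psma2, Psma4, Psma6, Psma7, Psmb1, Psmb2, Psmb3 and Psmb4, were not called under any comparison of the main model.

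No base or lid gene was called with all libraries and no term for the letter, and several had lower levels in the libraries with title letter c. Of their 17 members, values were lower for 12 in unloaded controls (median log2 change -0.09) and for 6 in unloaded knockouts (median 0.10). Without AMB mKO replicate 2 the knockout values were lower for 10 of 17, with a median of -0.03, so the sign of that median rests on 1 library. The 6 ATPase genes Psmc1 to Psmc6 had medians, with all libraries, of -0.05 and 0.14, the base subunits Psmd1, Psmd2 and Psmd4 of 0.10 and 0.21, and the lid subunits Psmd3, Psmd6, Psmd7, Psmd8, Psmd11, Psmd12, Psmd13 and Psmd14 of -0.18 and -0.06. Psmd4, a receptor for ubiquitin chains, ran 77.7, 103 and 141 CPM in AMB Ctrl, 70.9, 112 and 145 in AMB mKO, 73.6, 124 and 164 in HU Ctrl and 93.9, 128 and 215 in HU mKO. Its log2 changes with unloading were 0.17 ± 0.19 in controls and 0.36 ± 0.20 in knockouts (adjusted p = 0.62 and 0.24, edgeR). Psmd8, of the lid, had log2 changes of -0.38 ± 0.15 in controls (adjusted p = 0.10) and -0.14 ± 0.16 in knockouts (adjusted p = 0.60). In controls it fell by 0.42 with the title letter as covariate (adjusted p = 0.044) and by 0.38 without the 3 libraries rich in adipocyte markers (adjusted p = 0.049), and in knockouts it had -0.26 without replicate 2. Psmc6, an ATPase, had 0.14 ± 0.15 and 0.31 ± 0.16 (adjusted p = 0.61 and 0.21), the latter 0.18 without replicate 2. Psmd12, of the lid, had -0.02 ± 0.19 and 0.10 ± 0.20, the latter -0.076 without replicate 2.

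Psmd3, a scaffold of the lid, separated the letters most plainly and was singled out after its values had been seen. In unloaded mice the 6 libraries with letter c ran from 43.9 to 71.1 CPM and the 9 with letters a and b from 83.7 to 117. In ambulatory mice the 5 with letter c ran from 47.3 to 74.5 CPM and the 10 with letters a and b from 78.5 to 113, so the ranges did not overlap in either state. Psme3 did so in unloaded mice only, with 30.8 to 42.9 CPM in letter c and 43.2 to 60.4 in letters a and b. Psmd4 had medians in unloaded mice of 96.6 CPM in letter c and 154 in letters a and b, and Psmd2 of 164 and 267. Both genotypes were among these letter c libraries. In ambulatory mice Psmc6 and Psmd8 had higher medians in letter c (66.1 and 122 CPM) than in letters a and b (57.3 and 117). How many of all genes separate by letter in this way is not given, so the separation cannot be called particular to these members. What the letter stands for, and its part in these values, was not tested.

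**Figure D4:**
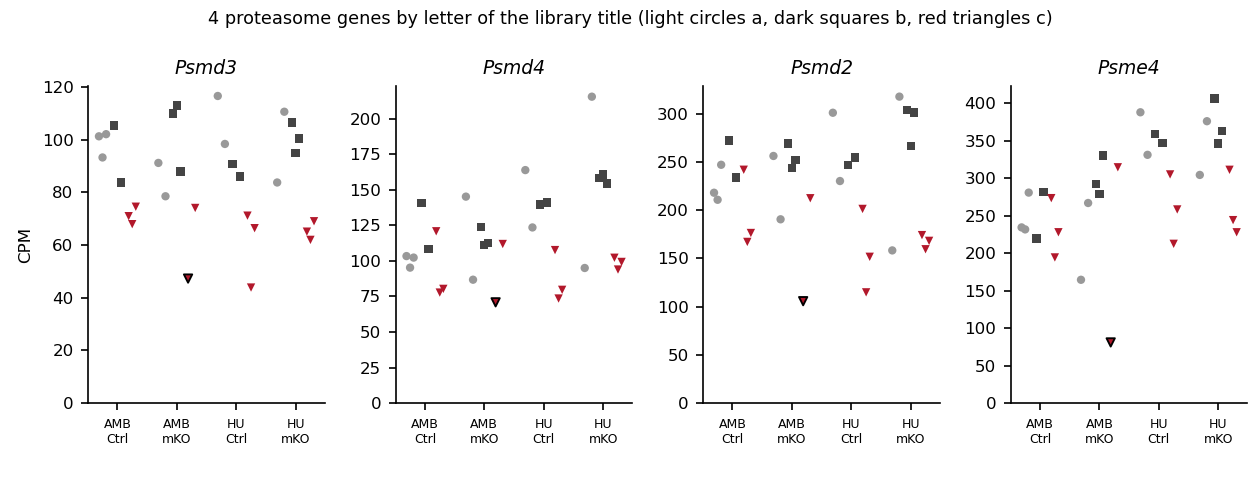
CPM of Psmd3, Psmd4, Psmd2 and Psme4 in every mouse, by group and by the letter that ends the library title (light circles a, dark squares b, red triangles c; black edge, AMB mKO replicate 2). Letter c lies below letters a and b for Psmd3 in both states, from 43.9 to 71.1 CPM in unloaded mice.

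Immunoproteasome subunits were the members most affected by a single library. AMB mKO replicate 2 had the highest of 30 values for all 3, at 25.3 CPM for Psmb8, 14.9 for Psmb9 and 20.3 for Psmb10, and for Psme1 (35.3) and Psme2 (41.5), while it was the lowest of 30 for 22 of the 42 members, among them 9 of 14 core and 12 of 17 base and lid genes. The shares of all genes for which this library was lowest or highest are not given. Its skeletal muscle marker sum, 1712 CPM, was the lowest too, so these counts are not read as particular to the proteasome. Psmb10 ran 7.33, 9.11 and 16.5 CPM in AMB Ctrl and 5.95, 6.78 and 7.36 CPM in HU Ctrl. The highest unloaded control lay just above the lowest ambulatory one, with 5 of 7 unloaded mice below every ambulatory one. The log2 change was -0.55 ± 0.20 (adjusted p = 0.066, edgeR), and without replicate 2 in the model Psmb10 fell by 0.56 ± 0.17 (adjusted p = 0.019). In knockouts Psmb10 ran 6.61, 8.6 and 20.3 CPM in AMB mKO and 4.38, 7.12 and 8.41 in HU mKO. It fell by 0.70 ± 0.20 on the log2 scale (adjusted p = 0.023, edgeR), but without replicate 2 the change was -0.40 ± 0.18 and missed the threshold (adjusted p = 0.14). With replicate 2 kept, Psmb10 was also not called in knockouts by limma voom or with only the 2 groups in the model.

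Psmb8 ran 2.67, 4.03 and 9.39 CPM in AMB Ctrl, 3.67, 4.86 and 25.3 in AMB mKO, 2.29, 4.49 and 6.51 in HU Ctrl and 1.6, 4.09 and 6.32 in HU mKO. Its log2 change with unloading was -0.11 ± 0.37 in controls (adjusted p = 0.89), and in knockouts -1.07 ± 0.37 (adjusted p = 0.064) with replicate 2 and -0.27 ± 0.32 (adjusted p = 0.63, edgeR) without it. Psmb9 ran 1.25, 2.77 and 5.01 CPM in AMB Ctrl, 2.17, 2.82 and 14.9 in AMB mKO, 1.14, 2.13 and 4.08 in HU Ctrl and 1.00, 2.44 and 3.69 in HU mKO. The 4 groups overlapped for both genes. For Psmb9 the change was -0.30 ± 0.38 in controls, and in knockouts -0.996 ± 0.376 with replicate 2 and -0.17 ± 0.33 without it. On the opposite strand, Psmb9 shares 212 exon bases with Tap1 and Psmb8 shares 498 with Gm20496, so the reads of these genes are uncertain.

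Set against the constitutive subunit that each replaces, per kb, Psmb8 stood at a median of 1.74% of Psmb5 in AMB Ctrl, 2.07% in AMB mKO, 2.54% in HU Ctrl and 2.64% in HU mKO. Psmb9 stood at 2.01, 1.81, 1.41 and 1.68% of Psmb6, and Psmb10 at 16.5, 12.9, 15.0 and 13.3% of Psmb7, in the same order of groups. In AMB mKO replicate 2 these ratios were 23.4, 15.6 and 67.2%, against at most 3.99, 3.63 and 22.8% in any other library. Immunoproteasome transcripts were thus the lesser of each pair in all 30 libraries. The size of these percentages depends on the annotation, since the lengths count every annotated exon. They were 3381 bases for Psmb8 and 3660 for Psmb9, but 899 for Psmb5. In CPM not divided by length each immunoproteasome gene was also the lesser, though in AMB mKO replicate 2 Psmb8 had 25.3 CPM against 28.8 for Psmb5.

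The PA28 cap of PSME1 and PSME2, which is induced with the immunoproteasome and opens the core without ATP, ran lower in unloaded mice of both genotypes. Psme2 ran 15.0, 18.5 and 31.7 CPM in AMB Ctrl and 12.8, 14.7 and 15.7 CPM in HU Ctrl, with 6 of 7 unloaded controls below every ambulatory one. Its log2 change was -0.42 ± 0.18 (adjusted p = 0.13), and without AMB mKO replicate 2 in the model it fell by 0.43 ± 0.15 (adjusted p = 0.043, edgeR). In knockouts it ran 15.7, 18.4 and 41.5 CPM in AMB mKO and 12.5, 14.0 and 19.2 in HU mKO. It fell by 0.62 ± 0.18 (adjusted p = 0.030, edgeR), a call that ended without replicate 2 (-0.32 ± 0.16, adjusted p = 0.20). With replicate 2 kept, the call also ended with limma voom, without a filter on low counts and with only the 2 groups in the model. The copy Psme2b ran from 0.901 to 3.53 CPM over the 4 groups, and reads that match both genes are uncertain.

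Psme1 ran 17.0, 25.2 and 35.0 CPM in AMB Ctrl and 15.1, 19.2 and 20.9 in HU Ctrl, and 19.7, 24.6 and 35.3 in AMB mKO and 15.7, 18.9 and 23.7 in HU mKO. All 7 unloaded controls and all 8 unloaded knockouts were below the ambulatory median of their genotype. The log2 changes were -0.38 ± 0.14 (adjusted p = 0.072) in controls and -0.39 ± 0.14 (adjusted p = 0.069, edgeR) in knockouts; without replicate 2 they were -0.38 ± 0.12, when Psme1 fell (adjusted p = 0.034), and -0.24 ± 0.14 (adjusted p = 0.25). The highest ambulatory values of Psmb10, Psme1 and Psme2 came from AMB Ctrl replicate 7 and from AMB mKO replicates 2 and 4.

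Markers of immune and fat cells were measured beside these genes. No marker of any list was at 0 in all libraries of a group. The 10 macrophage markers summed to 125 to 324 CPM in AMB Ctrl, 140 to 462 in AMB mKO, 142 to 371 in HU Ctrl and 159 to 249 in HU mKO; 8 of 10 had higher values in unloaded controls and 10 of 10 lower values in unloaded knockouts, with 0 called in either. The 462 CPM were those of AMB mKO replicate 2, and the highest of the others in its group was 340. With replicate 2 the macrophage changes in knockouts ran from -0.75 to -0.16 on the log2 scale. Without it Cd163 alone turned higher, at 0.23, and the others ran from -0.52 for Adgre1 to -0.03 for Lyz2. The 10 lymphocyte and neutrophil markers, of which 2 were tested, summed to at most 7.06 CPM in any library, and to 1.36 CPM in AMB mKO replicate 2. The 7 adipocyte markers summed to 181 to 777 CPM in AMB Ctrl, 181 to 9346 in AMB mKO, 116 to 398 in HU Ctrl and 112 to 2259 in HU mKO. In AMB Ctrl replicate 7 the macrophage sum was 181 CPM and the skeletal muscle sum, at 42490, the highest of its group. The 6 fibro-adipogenic progenitor markers summed to 903 to 7223 CPM in AMB Ctrl, 900.3 to 16984 in AMB mKO, 549 to 3273 in HU Ctrl and 522 to 1507 in HU mKO, the highest sum being that of AMB mKO replicate 4. Of these markers the collagen genes Col1a1 and Col3a1 fell, by 2.74 and 1.63 on the log2 scale in unloaded controls and by 3.92 and 2.61 in unloaded knockouts. The 8 endothelial markers summed to 341 to 576 CPM in AMB Ctrl, 365 to 436 in AMB mKO, 324 to 428 in HU Ctrl and 316 to 491 in HU mKO, and 1 of them, Kdr, fell by 1.07 and 0.85. Of the 6 fast fibre markers 1, Myh1, rose by 1.88 in controls and 1.78 in knockouts. Beside these calls, 5.74% of all genes tested fell and 5.37% rose in controls, and 4.75% fell and 5.3% rose in knockouts. The part of these cell types in the levels of immunoproteasome and PA28 genes was not tested.

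**Figure D5:**
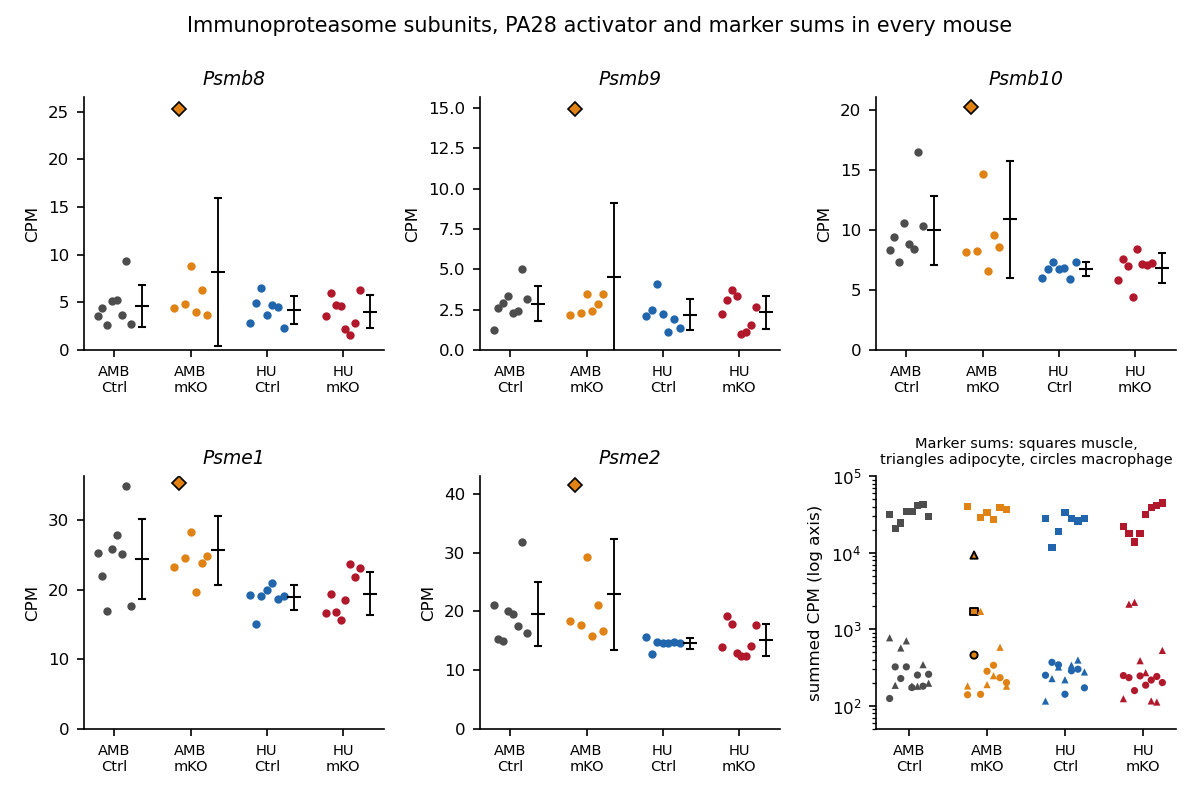
CPM of the 3 immunoproteasome subunits and of Psme1 and Psme2 in every mouse, by group, with the mean ± SD beside each group, and summed CPM of skeletal muscle, adipocyte and macrophage markers on a log axis. AMB mKO replicate 2 (black edge) has 25.3 CPM of Psmb8 and the lowest muscle sum, 1712 CPM.

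Of the other caps and the inhibitor, Psme4 and Psmf1 had higher values in unloaded mice and Psme3 lower ones, none past the threshold. Psme4, encoding PA200, an activator of the nucleus, ran 194, 233 and 282 CPM in AMB Ctrl and 212, 331 and 388 CPM in HU Ctrl, with 5 of 7 unloaded controls above every ambulatory one. Its log2 change was 0.34 ± 0.21 in controls (95% interval -0.08 to 0.76; adjusted p = 0.29) and 0.44 ± 0.21 in knockouts (adjusted p = 0.18, edgeR), where it ran 81.0, 279 and 330 CPM in AMB mKO and 228, 328 and 406 in HU mKO. The 81.0 CPM were those of replicate 2, and without it the change was 0.25 ± 0.16 (adjusted p = 0.32). Psme4 rose in knockouts when the model held a term for the letter, by 0.54 ± 0.18 (adjusted p = 0.046); it was higher in unloaded mice within all 3 letters in both genotypes. Psme3, encoding the nuclear PA28 gamma, ran 41.1, 51.1 and 66.0 CPM in AMB Ctrl, 32.6, 54.4 and 65.3 in AMB mKO, 30.8, 47.9 and 57.9 in HU Ctrl and 35.2, 47.5 and 60.4 in HU mKO, with log2 changes of -0.18 ± 0.16 in either genotype, and of -0.30 in knockouts without replicate 2 (adjusted p = 0.18). Psmf1, encoding the inhibitor PI31, ran 15.3, 17.0 and 19.2 CPM in AMB Ctrl, 12.4, 16.9 and 20.6 in AMB mKO, 17.0, 18.9 and 20.6 in HU Ctrl and 17.2, 19.8 and 24.5 in HU mKO. No unloaded mouse of either genotype was below the ambulatory median, yet the log2 changes of 0.14 ± 0.10 and 0.17 ± 0.10 missed the threshold (adjusted p = 0.36 and 0.26, edgeR).

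No proteasome gene passed the test for a difference between knockouts and controls. In ambulatory mice 0 of 42 members were called, as were 0.0177% of all genes tested; 1 member, Psmb8, had an unadjusted p under 0.05. In unloaded mice 0 of 42 were called, again beside 0.0177% of all genes, and none had an unadjusted p under 0.05. The smallest p values in ambulatory mice were those of Psmb8 (log2 difference of knockout from control 0.84 ± 0.37, adjusted p = 0.63), Psmb9 (0.69 ± 0.37, 0.70) and Psme2 (0.23 ± 0.18, 0.84), all by edgeR. Without AMB mKO replicate 2 Psmb9 turned to -0.11 and Psme2 to -0.03. The highest log2 difference of any member, Psmb8 included, was then 0.18, and 0 members had an unadjusted p under 0.05 (edgeR). Values of 31 of 42 members were lower in ambulatory knockouts with replicate 2 (median -0.06) and of 17 of 42 without it (median 0.02). All 14 core genes were lower with it and 9 without it, and 16 of 17 base and lid genes with it and 3 without it. In unloaded mice 33 of 42 values were higher in knockouts, with a median of 0.05, and the smallest p values belonged to Psma7 (0.17 ± 0.13), Psmd4 (0.22 ± 0.20) and Psmd10 (0.13 ± 0.12), each with an adjusted p of 1.00.

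The 95% intervals bound what these groups could have missed. Over the 42 members, with AMB mKO replicate 2 in the model, they reached from -0.90 to 0.80 log2 in unloaded knockouts against controls and from -0.53 to 1.59 in ambulatory ones. The outer limits belonged to Psmb8 and Psmb9, both scarce, except the lower one in ambulatory mice, which was that of Psmb5. For Psmd10 in unloaded mice the interval was -0.12 to 0.38. The interaction, which asks whether unloading acted differently in knockouts, called 0 of 42 members, and 0% of all genes tested (410 genes at an unadjusted p under 0.05, edgeR). Its smallest p values among members were for Psmb8 (-0.96 ± 0.53), Psmb9 (-0.70 ± 0.54) and Psmc2 (0.27 ± 0.24), each with an adjusted p of 0.999 and none with an unadjusted p under 0.05. Without AMB mKO replicate 2 the interaction values of all members lay between -0.14 and 0.22. So the fall of Psmd10 in controls alone, and of Psmb10, Psme2 and Psmd9 in knockouts alone, was not shown to differ between genotypes. The comparisons of genotype and of unloading use the same 4 groups, and their values are not independent of each other.

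Sex called 0 of 42 members, where it called 0.213% of all genes. Psma7 (log2 difference of female from male -0.21 ± 0.09), Psmb3 (-0.18 ± 0.08) and Psmb5 (-0.28 ± 0.14) had the smallest p values, with adjusted p of 0.34, 0.37 and 0.40 by edgeR. All 14 core genes had lower values in females, and 10 of 14 without AMB mKO replicate 2.

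Spread between mice also differed among the classes. The median coefficient of variation over members was 15.9% in AMB Ctrl, 24.1% in AMB mKO, 17.0% in HU Ctrl and 17.0% in HU mKO, and 16.6% in AMB mKO without replicate 2. For the 3 immunoproteasome genes it was 37.5, 94.8, 33.9 and 43.3% in the same order, and 30.04% in AMB mKO without replicate 2. The 3 assembly chaperones had 15.7, 13.5, 8.54 and 9.96%. The 3 base subunits without ATPase activity varied more in unloaded mice (28.2 and 31.3%) than in ambulatory controls (16.1%). In AMB mKO they had 22.2%, and 12.5% without replicate 2. Among unloaded mice Psmd2 and Psmd4 had lower medians in letter c, as given above, and the part of the letter in this spread was not tested. Psmb10 had 28.6% in AMB Ctrl and 8.55% in HU Ctrl, and Psme2 27.5 and 6.01%; no test of these spreads was made.

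Of 8 genes of the factors that govern proteasome transcription and their processing, 2 fell and 1 rose in unloaded controls, and 1 fell in unloaded knockouts. Of all genes tested, 5.74% fell and 5.37% rose in controls, and 4.75% fell and 5.3% rose in knockouts. The same shares stand beside the counts of the other lists below, which are short and were chosen with earlier results known. Mafk, a small MAF partner of NRF1 and NRF2, fell by 1.03 ± 0.16 on the log2 scale in controls (adjusted p = 0.00018), from 53.3 ± 11.5 CPM (SD, n = 8) to 26.5 ± 3.29 (n = 7), and by 0.75 ± 0.16 in knockouts (adjusted p = 0.0045, edgeR), from 45.7 ± 14.3 (n = 7) to 26.5 ± 2.74 CPM (n = 8). In controls the highest unloaded value, 32.8 CPM, was below the lowest ambulatory one, 39.5 CPM. Mafg fell by 0.51 ± 0.14 in controls, and Ngly1, the enzyme that removes glycans from NRF1, rose by 0.34 ± 0.11 (adjusted p = 0.023 and 0.044). Nfe2l1 itself ran 539, 866 and 1353 CPM in AMB Ctrl and 279, 577 and 761 in HU Ctrl, and 281, 959 and 1155 in AMB mKO and 351, 515 and 691 in HU mKO. Its log2 changes of -0.73 ± 0.26 and -0.69 ± 0.26 missed the threshold (adjusted p = 0.060 and 0.087, edgeR); without AMB mKO replicate 2, the lowest ambulatory knockout, Nfe2l1 fell by 0.71 and 0.88 (adjusted p = 0.018 and 0.0082).

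Of 9 proteasome-associated proteins, Uchl5, a deubiquitinase that docks on the base, rose in knockouts by 0.51 ± 0.16 (adjusted p = 0.042) with replicate 2 and had 0.45 without it (adjusted p = 0.063, edgeR). Of 11 genes of antigen processing, which handle the peptides an immunoproteasome makes, 0 were called in controls; in knockouts Calr and Pdia3, chaperones of MHC class I, each fell by 0.52 (adjusted p = 0.0098 and 0.040), and without replicate 2 the call of Pdia3 ended (adjusted p = 0.11) and that of Calr held (adjusted p = 0.018). Of 10 genes of interferon signalling, 9 had lower values in unloaded knockouts (median log2 change -0.36) and 6 in unloaded controls (median -0.04). The knockout tally includes AMB mKO replicate 2 and is not given without it, so a difference between genotypes is not read from it. The kinase gene Jak2 rose in controls by 0.77 ± 0.18 (adjusted p = 0.0060) and in knockouts by 0.59 ± 0.19 (adjusted p = 0.041, edgeR). Without replicate 2 Jak2 in knockouts had an adjusted p of 0.071. Of 9 ubiquitin ligases known in muscle, Cblb rose by 0.58 ± 0.18 and Stub1 fell by 0.43 ± 0.14 in controls (adjusted p = 0.037 and 0.045), and 0 were called in knockouts. Fbxo32 (atrogin-1) and Trim63 (MuRF1), the ligases best known from wasting muscle, had log2 changes of 0.36 ± 0.36 and -0.67 ± 0.35 in controls and 0.72 ± 0.37 and 0.18 ± 0.37 in knockouts, none past the threshold. These knockout values include replicate 2, the library poor in muscle markers, and are not given without it. The interaction called 0 of the 9 ligases, so the opposite signs of Trim63 are not read as a difference between genotypes.

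The remaining pathway lists held 0 called genes in either unloading comparison. They were 5 chaperones and maturation factors of the core (Psmg1 to Psmg4 and Pomp; medians -0.19 in controls and -0.11 in knockouts), Adrm1 and Sem1, which are subunits outside the symbol pattern (-0.20 and -0.06), 10 ubiquitin shuttles and VCP (-0.07 and 0.03), 6 genes of ubiquitin and its activation (-0.07 and 0.09) and 5 calpains (-0.04 and -0.10).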

How the data were processed

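Whole-transcriptome libraries from the soleus of 30 mice were analysed from the raw counts per gene that the authors deposited. Per the submitters' processing notes, the tools named are DESeq2 1.34.0, featureCounts 1.6.3, STAR 2.7.9a and cutadapt 1.16, and the build is GRCm39 (mm39). Neither the annotation release nor the strand setting of the counting is stated there. The library kit, per the labels' protocols, keeps strand; other parts of those protocols describe cells and treatments that are not these mouse samples and were not used.

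Samples were grouped by title into 4 groups. Counts were fitted in R 4.3.3 with edgeR 4.0.16 (TMM, filterByExpr, robust quasi-likelihood test) on all 30 libraries with group and sex as terms, and p-values were adjusted by Benjamini-Hochberg over 16932 genes. A gene is called at an adjusted p below 0.05. Standard errors are the log2 change divided by the square root of F. The fit was tested on simulated data. Levels are CPM from TMM library sizes, exon lengths come from GENCODE M21, and promoters from RefSeq. No pair of the 98 pairs of libraries within a group agreed within sampling noise.

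The members and gene lists were chosen with earlier results of these data known. All 42 members are named; values are given in full for members called in any comparison, the immunoproteasome subunits with their partners, the activators and the inhibitor, the 3 members with the smallest p where fewer than 3 were called, and up to 4 called genes of each list. Alternatives were DESeq2 1.42.0, voom with quality weights in limma 3.58.1, scaling by median-of-ratios size factors, no filter on low counts, a mean of at least 1 CPM, the title letter as a covariate, sex left out, only the 2 groups compared, and fits without AMB mKO replicate 2 or without the 3 libraries richest in adipocyte markers (AMB mKO 2, HU mKO 2 and HU mKO 3). Replicate numbers follow the order of deposit and are names only. The result of 1 gene of a list is not reported here.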

Additional observations from a re-analysis of the deposited data

Results flagged for a closer look

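In 80 combinations of a group with 1 of 20 members chosen from the 42, 11 held 1 mouse set apart from the rest. The gap was large against the range of its group (Dixon's criterion at 95%). These members were chosen with earlier results known and share the same libraries, so the count cannot be set against a rate expected by chance. AMB mKO replicate 2 gave 4 of them, with 25.3 CPM of Psmb8 (others 3.67 to 8.77), 14.9 of Psmb9 (others 2.17 to 3.48), 24.7 of Psma5 (others 34.7 to 41.8) and 32.6 of Psme3 (others 54.3 to 65.3). AMB Ctrl replicate 7 gave another 4, with 118 CPM of Psmb5 (others 52.5 to 74.1), 9.39 of Psmb8 (others 2.67 to 5.29), 16.5 of Psmb10 (others 7.33 to 10.6) and 31.7 of Psme2 (others 15.0 to 21.1). HU Ctrl replicate 2 was low for both PA28 genes, with 15.1 CPM of Psme1 (others 18.8 to 20.9) and 12.8 of Psme2 (others 14.6 to 15.7). AMB Ctrl replicate 1 had 109 CPM of Psma3 (others 72.9 to 88.6).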

How the results depend on the processing

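No paired analysis was possible because the labels carry no replicate numbers. In unloaded controls 1 member was called lower; the count was 2 with median-of-ratios size factors, 5 with DESeq2, 6 with limma voom, 0 without a filter on low counts, 2 with a mean of at least 1 CPM, 7 with the title letter as covariate, 7 without AMB mKO replicate 2, 9 without the 3 libraries rich in adipocyte markers and 7 with only the 2 groups compared. In the same mice 0 members were called higher, and 1 with limma voom. In unloaded knockouts 3 were called lower, Psmb10, Psmd9 and Psme2. The count was 4 with DESeq2, limma voom or sex left out, and 2 without the 3 libraries. It was 1 without a filter on low counts, Psmb10. With only the 2 groups compared it was also 1, but that was Psme1, and none of the 3 was called. Limma voom did not call Psmb10 or Psme2. In the same mice 0 were called higher, and 1 with the title letter. Over all genes, 1882 and 1702 were called in controls and knockouts; limma voom called 3409 and 2781, and no filter on low counts 1225 and 987. Of 20 members under 10 alternatives, 161 of 200 values in controls and 179 of 200 in knockouts kept their direction and side of the threshold, and 0 reversed. Signs turned for genotype in ambulatory mice, where Psmb9 became -0.11 without AMB mKO replicate 2 and -0.19 without the 3 libraries, and Psme2 became -0.033 and -0.068. The interaction of Psmb9 turned to 0.22 and 0.049. Genotype and interaction called 0 members under every alternative run. The cause of these shifts was not tested. The widest intervals were those of Psmb8 and Psmb9, which had few counts.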
